A study of Homo sapiens with 6 samples.

Results

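Box C/D and box H/ACA small nucleolar RNAs (snoRNAs) and the small Cajal body RNAs (scaRNAs) were examined in total RNA-seq of the B-ALL line SEM, a B-cell leukemia cell line. The set comprised the rows of the deposited count table whose symbol begins with SNORD (box C/D), SNORA (box H/ACA) or SCARNA (Cajal body) and whose CPM (counts scaled to the library total) reached 1 in at least 1 of the 6 libraries. The members were thus selected on their measured counts. This gave 87 members of 859 rows with such a symbol, among 57912 rows in all. There were 22 box C/D members of 399 rows, 53 box H/ACA members of 406, and 12 Cajal body members of 54.

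The design held 3 CTCF-WT and 3 CTCF-dRBR libraries. In both lines of the study the endogenous CTCF carries a miniAID-mClover3 tag, OsTIR1(F74G) is expressed constitutively, and the auxin analog 5-Ph-IAA has the tagged protein degraded. Per the methods, 6 h of 5-Ph-IAA at 1 or 10 µM preceded 18 h of doxycycline at 1 µg/mL, which induced HA-tagged wild-type CTCF in CTCF-WT and HA-tagged CTCF without its RNA-binding region (RBR) in CTCF-dRBR, for 24 h of 5-Ph-IAA in all. The labels give the genotype of CTCF-WT as CTCF-miniAID-mClover3 only and that of CTCF-dRBR as CTCF-miniAID-mClover3 with TRE3G-HA-CTCF-dRBR. Whether a replicate is a separate culture is not stated, so p-values measure only the spread between these libraries, which may be technical. Counts of CTCF itself join the endogenous and the induced transcript and therefore do not check the labels.

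Box C/D RNAs pair with a target RNA and direct the methylation of a ribose by the enzyme fibrillarin (FBL), whereas box H/ACA RNAs direct the conversion of uridine to pseudouridine by dyskerin (DKC1). Most human snoRNAs are cut from introns of host genes, many of which encode ribosomal proteins or translation factors. A few, such as the U3 family (SNORD3), have genes of their own and act in the cleavage of pre-rRNA rather than in its modification. The scaRNAs carry the same boxes, reside in Cajal bodies and mostly guide modification of spliceosomal RNAs.

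Among the members with an annotated gene of at most 300 bases, the letters that name the classes were present as follows. TGATGA (box C) was found on the sense strand within the first 30 bases in 11 of 14 box C/D and 0 of 50 box H/ACA members, against 59.7% of the 370 other box C/D rows. CTGA (box D) was found within the last 15 bases in 13 of 14 box C/D members and 77.8% of the other rows of that class. ACA was found within the last 6 bases in 45 of 50 box H/ACA and 1 of 14 box C/D members, and in 68.3% of the 347 other box H/ACA rows. The symbols and the box letters thus divided the members in the same way for most rows.

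The sequences on which the results turn are given from the GRCh37 genome, 5′ to 3′ on the strand of the gene, as DNA letters, with these boxes in capitals where they lay in the stated windows. SNORA81 (chr3:186504464-186504641, plus strand) and SNORA63 (chr3:186505089-186505220, plus strand) are shown because both lie inside EIF4A2 and differed in opposite directions. SNORA31 (chr13:45910449-45910582, minus strand) is shown as the H/ACA member with lower counts in CTCF-dRBR and no overlap of the groups. SNORA73B (chr1:28835071-28835274, plus strand) held the most counts of its class. The box C/D members shown are SNORD17 (chr20:17943353-17943589, minus strand), SNORD118 (chr17:8076772-8076905, minus strand) and SNORD116-17 (chr15:25328735-25328826, plus strand). The scaRNAs SCARNA13 (chr14:95999692-95999966, minus strand) and SCARNA12 (chr12:7076500-7076769, minus strand) had nearly the same length and very different fold changes.
SNORA81: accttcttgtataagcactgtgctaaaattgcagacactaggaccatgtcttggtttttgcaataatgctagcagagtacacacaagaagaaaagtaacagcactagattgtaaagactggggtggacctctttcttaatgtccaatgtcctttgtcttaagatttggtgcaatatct
SNORA63: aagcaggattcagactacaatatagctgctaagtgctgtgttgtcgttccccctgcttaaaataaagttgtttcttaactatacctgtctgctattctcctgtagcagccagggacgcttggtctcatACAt
SNORA31: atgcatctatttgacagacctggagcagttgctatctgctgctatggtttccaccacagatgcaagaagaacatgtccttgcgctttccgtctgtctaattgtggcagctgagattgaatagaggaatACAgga
SNORA73B: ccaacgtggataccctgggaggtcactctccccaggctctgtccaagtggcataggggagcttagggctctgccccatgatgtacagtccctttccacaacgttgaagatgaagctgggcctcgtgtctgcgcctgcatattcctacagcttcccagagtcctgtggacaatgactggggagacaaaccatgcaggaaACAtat
SNORD17: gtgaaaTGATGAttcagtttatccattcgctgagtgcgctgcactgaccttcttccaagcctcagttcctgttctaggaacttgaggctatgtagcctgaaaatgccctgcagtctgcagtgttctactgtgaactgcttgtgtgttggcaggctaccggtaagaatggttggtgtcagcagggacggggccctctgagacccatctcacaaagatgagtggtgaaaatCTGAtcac
SNORD118: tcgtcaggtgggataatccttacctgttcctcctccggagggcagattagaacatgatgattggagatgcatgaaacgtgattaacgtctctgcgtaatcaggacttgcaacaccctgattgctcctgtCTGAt
SNORD116-17: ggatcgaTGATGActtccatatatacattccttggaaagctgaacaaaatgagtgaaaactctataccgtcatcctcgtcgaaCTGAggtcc
SCARNA13: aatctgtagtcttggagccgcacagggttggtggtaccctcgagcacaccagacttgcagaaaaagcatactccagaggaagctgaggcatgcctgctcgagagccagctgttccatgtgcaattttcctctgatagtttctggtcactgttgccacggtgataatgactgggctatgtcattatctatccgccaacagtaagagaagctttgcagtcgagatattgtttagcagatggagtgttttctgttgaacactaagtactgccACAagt
SCARNA12: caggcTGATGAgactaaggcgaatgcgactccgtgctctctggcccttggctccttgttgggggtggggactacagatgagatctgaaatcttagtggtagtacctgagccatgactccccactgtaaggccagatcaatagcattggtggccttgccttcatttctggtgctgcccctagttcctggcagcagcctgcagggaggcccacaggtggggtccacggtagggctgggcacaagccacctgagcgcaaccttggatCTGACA
In SCARNA12, which holds the boxes of both classes, the CTGA and the ACA overlap. SNORA81 held no ACA in its last 6 bases, and SNORD118 no TGATGA in its first 30. SNORD116-19 (chr15:25331674-25331765, plus strand) has the same 92 bases as SNORD116-17, with 0 differences, and the deposited counts of both rows were identical in all 6 libraries.

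The depth was 51732177 to 53166735 counts per library in CTCF-WT, and in CTCF-dRBR 30034505 (replicate 1) to 50457168. That library stood apart from the others. The Spearman correlation between GC content and the deviation of a library from the mean of the 6 libraries, across 13654 genes, was 0.71, 0.68 and 0.33 in CTCF-WT 1 to 3 and −0.79, −0.44 and 0.51 in CTCF-dRBR 1 to 3. Counts on rows of the rRNA biotype were 24.7 to 68.0 CPM in CTCF-WT and 0.60 to 2.36 CPM in CTCF-dRBR. Of 8 B-lineage markers 7 were expressed at 1 CPM or more, and 0 of the T cell, erythroid and fibroblast markers were. Of 4 granulocyte and monocyte markers LYZ alone was, at 5.64 to 6.36 raw CPM over the 6 libraries. The part of depth and rRNA in the results was not tested, and values without CTCF-dRBR 1 and without a GC trend are given where they bear.

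The members as a whole took 0.94%, 0.94% and 0.34% of all counts in CTCF-WT 1 to 3, and 0.39%, 0.28% and 0.40% in CTCF-dRBR 1 to 3. CTCF-WT 3 thus lay among the CTCF-dRBR libraries, and the groups overlapped. Box C/D members took 0.696%, 0.722% and 0.193% in CTCF-WT against 0.247%, 0.139% and 0.220% in CTCF-dRBR. Box H/ACA members took 0.0937%, 0.0829% and 0.0534% against 0.0504%, 0.0586% and 0.0804%, and Cajal body members 0.152%, 0.136% and 0.0986% against 0.0920%, 0.0863% and 0.101%. In each class CTCF-WT 1 and 2 were the highest libraries and CTCF-WT 3 lay within the range of CTCF-dRBR. A lower share of counts cannot be told apart from fewer cells with the RNA or less RNA per cell.

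**Figure D1:**
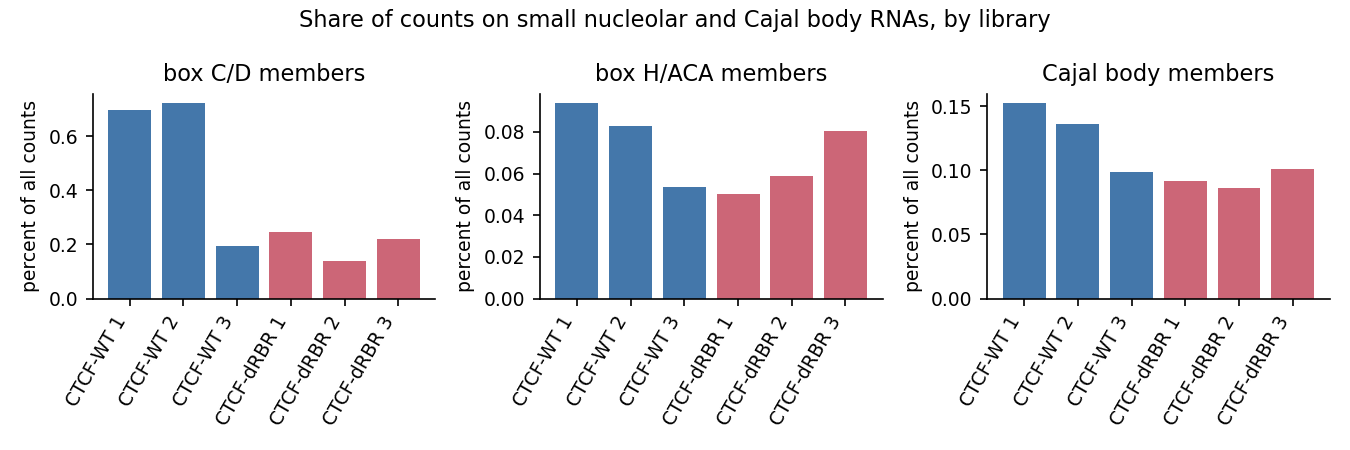
Percent of all counts on the box C/D, box H/ACA and Cajal body members in each of the 6 libraries (blue, CTCF-WT; red, CTCF-dRBR; each panel has its own axis from 0). CTCF-WT 1 and 2 are highest in each panel, at 0.696% and 0.722% for box C/D, while CTCF-WT 3 lies at 0.193%.

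A single row led each class. SNORD3A held 76.3% to 91.5% of the box C/D counts of a library, SNORA73B 40.1% to 48.7% of the box H/ACA counts, and SCARNA10 21.7% to 41.4% of the Cajal body counts. Apart from SNORD3A, the summed raw CPM of all members ran from 1975 to 3123 in CTCF-WT and from 1636 to 2337 in CTCF-dRBR. These are counts, which grow with the length of an RNA, and do not rank the RNAs by number of molecules.

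The question of the comparison was whether gene expression differs when the induced CTCF lacks the RNA-binding region. By limma-voom with Benjamini-Hochberg adjustment over 14044 genes, 0 of the 87 members passed an adjusted p of 0.05, as did 0% of all genes tested. The lowest adjusted p of a member was 0.140, for SNORA81. At an unadjusted p under 0.05 there were 17 members (19.5%), 5 higher and 12 lower in CTCF-dRBR, against 25.4% of all genes (12.6% higher and 12.8% lower). The edgeR quasi-likelihood test gave 0 members past the adjusted threshold and 21 at an unadjusted p under 0.05, against 24.6% of all genes, and DESeq2 gave 9 past the threshold among 11.5% of all genes. The groups did not overlap for 12 members (13.8%), 7 higher and 5 lower, against 37.5% of all genes (20% higher and 17.5% lower).

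The size of the fold changes showed another pattern. The fitted fold change exceeded 2-fold for 41 members (47.1%), 4 higher and 37 lower, against 7.75% of all genes (2.25% higher and 5.5% lower). Their standard errors were larger too, with a median of 0.57 on the log2 scale against 0.19 over all genes. The median log2 fold change was −0.16 for box C/D, −1.06 for box H/ACA and −0.47 for Cajal body members, against −0.0076 for all genes. Single libraries moved the box C/D median, to −0.50 without CTCF-dRBR 3, −0.30 without CTCF-dRBR 2 and −0.28 without CTCF-WT 3. It was −0.20 without CTCF-WT 2, −0.131 without CTCF-WT 1 and −0.125 without CTCF-dRBR 1. When the libraries were scaled on the members themselves, the median of all genes moved to 0.60. Those of the classes moved to 0.38, −0.54 and 0.16. Such a scaling moves all genes of a library together, so it is no check on the place of a class relative to all genes.

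Selection bears on these counts. Of the 87 members, 68 reached 1 CPM in both groups, 7 (all box H/ACA) in CTCF-WT only, and 12 (6 box C/D, 5 box H/ACA and 1 Cajal body) in CTCF-dRBR only. For the 19 that passed through 1 group, the rule fixed which group held the highest raw CPM. It did not fix the means: SCARNA23 passed in CTCF-dRBR only, with a mean of 0.51 CPM there and 0.54 in CTCF-WT. The counts above thus describe the members and support no statement about the class. Of the members counted as higher above, by unadjusted p, overlap or 2-fold change, SNORA81 alone reached 1 CPM in both groups. All members lower without overlap did so too. SNORA7B alone of those lower at an unadjusted limma-voom p under 0.05 did not. Only 39 members reached 1 CPM in all 6 libraries. With a mean of at least 1 CPM required, the median log2 fold change of box C/D was −0.76 (n = 16). It was −1.13 for box H/ACA (n = 42), −0.51 for Cajal body members (n = 11) and −0.021 for all genes. That limit leaves out the 6 box C/D rows that passed in CTCF-dRBR only. The rows nearest to the limit had their highest raw CPM at 1.03 (SNORD89), 1.07 (SNORD15A) and 1.07 (SNORA71C) inside it, and at 0.988 (SNORA2B), 0.951 (SNORA5A) and 0.922 (SNORA38B) outside it.

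**Figure D2:**
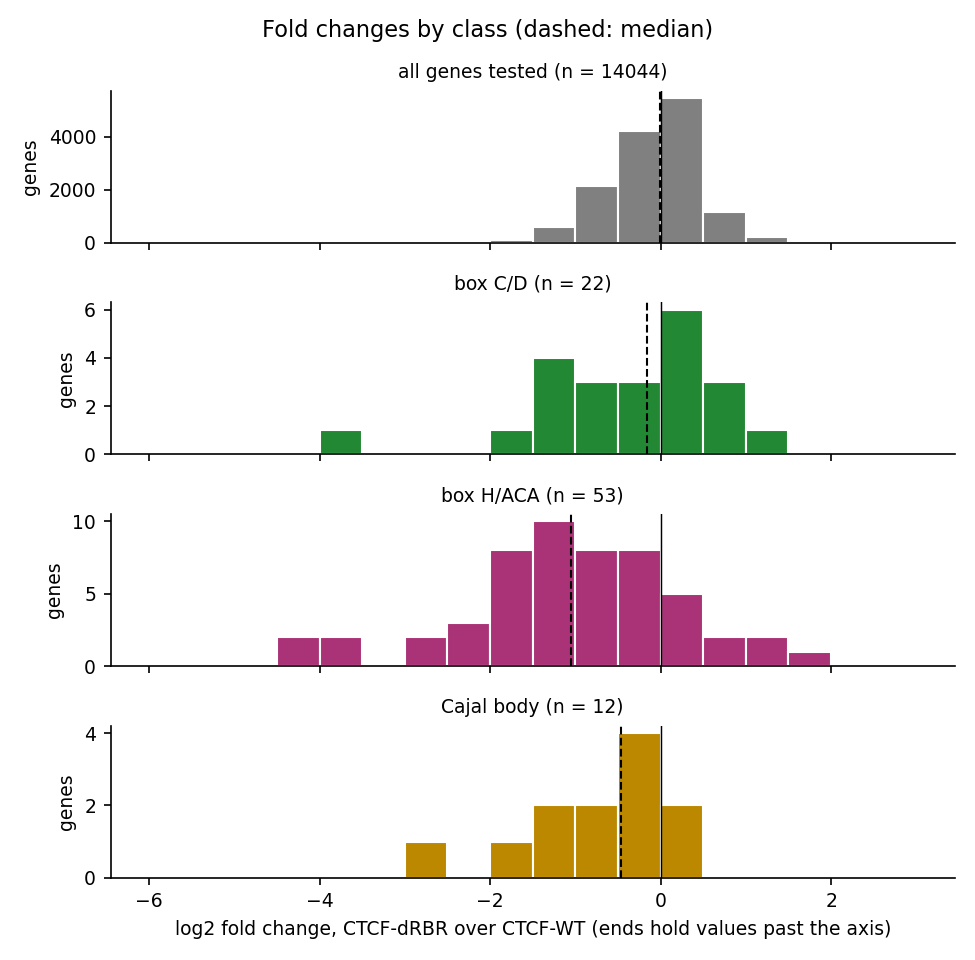
Histograms of the limma-voom log2 fold change (CTCF-dRBR over CTCF-WT, x axis; number of genes, y axis) for all 14044 genes tested and for the 3 classes, with dashed lines at the medians. The box H/ACA members lie mostly below 0, with a median of −1.06, while the median of all genes is −0.0076.

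Box C/D. The U3 rows, which belong to the RNA needed for early cleavage of pre-rRNA, were lower in mean in CTCF-dRBR. SNORD3A (chr17:19091329-19092027) had 6753, 6807 and 1438 TMM-scaled CPM in CTCF-WT 1 to 3 and 2273, 1029 and 1643 in CTCF-dRBR 1 to 3. CTCF-WT 3 lay within the range of CTCF-dRBR, and the log2 fold change of −1.37 (SE 0.65) had an adjusted p of 0.222 by limma-voom. When single libraries were left out it ran from −2.11 (without CTCF-WT 3) to −0.99 (without CTCF-WT 2). SNORD3B-2 (chr17:18966659-18967449) had 149, 99.5 and 47.3 CPM against 37.1, 24.2 and 46.4. Its groups did not overlap, by less than 1 CPM between CTCF-WT 3 and CTCF-dRBR 3, and the log2 fold change was −1.36 (SE 0.48, limma-voom adjusted p = 0.167).

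SNORD3C (chr17:19092978-19093558) and SNORD3D (chr17:19015313-19015949) were also lower without overlap, at 4.97 ± 0.75 against 2.13 ± 1.37 CPM and 3.35 ± 0.32 against 1.75 ± 0.78 CPM (mean ± SD, n = 3 libraries per group). SNORD3B-1 (chr17:18965225-18965982) overlapped, at 43.7, 98.7 and 43.9 against 36.4, 24.6 and 44.8 CPM. The 5 rows are not independent. Between 53.0% and 79.3% of the 100-base words of each occur in another row of the family, so the estimation of counts could divide reads among them in more than one way. Their annotated genes span 581 to 791 bases, which is more than the RNA itself.

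SNORD17, which lies in SNX5, had 317, 279 and 198 CPM in CTCF-WT and 26, 96.6 and 217 in CTCF-dRBR. CTCF-dRBR 3 was above CTCF-WT 3 while CTCF-dRBR 1 was far below, and the log2 fold change of −1.60 (SE 0.69) gave an adjusted p of 0.205 by limma-voom. Without CTCF-dRBR 1 the log2 fold change was −0.85. SNORD118 (U8), required for maturation of the large-subunit rRNA, had 4.38, 3.52 and 4.78 CPM against 1.31, 5.88 and 7.80. Here CTCF-dRBR held both the lowest and the highest libraries, and the fitted difference was 0.00 (SE 0.62). SNORD13 (U13), which guides acetylation of the small-subunit rRNA, had 16.6, 15 and 10.5 CPM against 2.98, 7.99 and 20.0, with the same order of the CTCF-dRBR libraries. Its log2 fold change of −0.76 (SE 0.62) was −0.13 without CTCF-dRBR 1.

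The imprinted host transcript SNHG14, which carries the SNORD115 and SNORD116 clusters of the Prader-Willi region, held 4 members. SNORD116-17 and SNORD116-19 each had 0.49, 0.50 and 0.79 CPM in CTCF-WT and 1.15, 0.98 and 1.15 in CTCF-dRBR. The groups did not overlap and the log2 fold change was 0.90 (SE 0.27, limma-voom adjusted p = 0.148), but the rows passed the 1 CPM limit in CTCF-dRBR only and are a single sequence. SNORD64 (chr15:25230011-25230320) had 3.22, 3.08 and 3.17 against 4.95, 3.12 and 2.83 CPM, with a log2 fold change of 0.13 (SE 0.23).

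SNORD116-20 (chr15:25332808-25334043) showed how far the deposited unit can matter. The row has the lincRNA biotype and spans 1236 bases, all covered by an exon of some annotated SNHG14 transcript. Reads of the host could thus be assigned to it. In counts it had 107, 109 and 94.6 CPM in CTCF-WT and 55.3, 92.8 and 113 in CTCF-dRBR, with overlap and a log2 fold change of −0.29. In the deposited TPM (transcript abundance scaled to a fixed total), which divide by an effective length, the same row had 42.9, 53.5 and 805 in CTCF-WT and 749, 618 and 582 in CTCF-dRBR. The number of counts hardly differed between CTCF-WT 2 and 3, while the TPM differed by more than the whole range of the other group. For SNORD116-17 and SNORD116-19 the TPM were listed at 0 in CTCF-WT 1 and 2 although counts were present, as was so in at least 1 library for 4 members in all.

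Of the other box C/D members, SNORD67 in CKAP5 was higher without overlap, at 0.22, 0.14 and 0.40 against 1.14, 0.50 and 0.56 CPM, and it passed the 1 CPM limit in CTCF-dRBR only. SNORD10 in EIF4A1 had 13.9, 9.61 and 2.88 CPM against 0, 0.37 and 6.30. A count of 0 in CTCF-dRBR 1 allows up to 0.0999 CPM (3 counts, counting error only). SNORD97, SNORD15A, SNORD15B, SNORD21, SNORD33, SNORD89, SNORD94 and SNORD109A overlapped between the groups.

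Box H/ACA. Of 53 members 43 had a negative and 10 a positive fitted fold change, and 27 were lower by more than 2-fold. In CTCF-dRBR 1 the members lay at a median of −1.11 log2 units from their own mean over the 6 libraries, against −0.36 and 0.32 in CTCF-dRBR 2 and 3 and 0.70, 0.49 and −0.18 in CTCF-WT 1 to 3. CTCF-dRBR 3 thus lay above CTCF-WT 3. Without CTCF-dRBR 1 the median log2 fold change was −0.58, without CTCF-dRBR 3 it was −1.63, and without both CTCF-WT 1 and CTCF-dRBR 1 it was −0.30. CTCF-dRBR 1 was the lowest library for 39 of the 53 members and CTCF-WT 1 the highest for 30.

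SNORA73B (U17b), an H/ACA RNA that acts in pre-rRNA cleavage and lies in SNHG3, had 468, 418 and 223 CPM in CTCF-WT and 203, 258 and 336 in CTCF-dRBR. The groups overlapped and the log2 fold change was −0.43 (SE 0.32, limma-voom adjusted p = 0.366), and −0.26 without CTCF-dRBR 1. SNHG3 itself had a log2 fold change of −1.05 (SE 0.50). Relative to SNHG3, SNORA73B was higher by 0.62 log2 units in CTCF-dRBR (exact permutation p = 0.2). SNORA53 in SLC25A3 had 76.3, 81.3 and 80.5 against 30.4, 93.7 and 120 CPM. The CTCF-WT libraries lay close together while those of CTCF-dRBR lay on both sides of them. SNORA74A (chr5:138614470-138614667) had 41.5, 39.7 and 34.5 against 9.76, 23.7 and 43.9 CPM, and SNORA48 in EIF4A1 (chr17:7478031-7478165) had 58.3, 38.5 and 9.49 against 2.08, 6.82 and 14.0.

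SNORA81 had the lowest p of all members. It had 27.2, 31.9 and 41.3 CPM in CTCF-WT and 188, 70.0 and 72.2 in CTCF-dRBR, so that each CTCF-dRBR library exceeded each CTCF-WT library. The log2 fold change was 1.54 (SE 0.42, limma-voom adjusted p = 0.140, unadjusted p = 0.00918), and the exact two-sided permutation test of 3 against 3 gave 0.1, the smallest p it can give. Over 22 alternatives the log2 fold change remained positive, from 0.95 to 2.29, and the adjusted p ran from 0.000232 to 0.482, under 0.05 in 7 of them. Without CTCF-dRBR 1 it was 1.10 and past the threshold, in a fit where 3.9% of all genes passed.

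SNORA31, in TPT1, had 13.9, 11.5 and 9.81 CPM in CTCF-WT and 7.82, 6.09 and 7.92 in CTCF-dRBR, the only box H/ACA member that was lower without overlap. Its log2 fold change was −0.69 (SE 0.19, limma-voom adjusted p = 0.142), from −0.91 to −0.13 over the alternatives and past the threshold in 4 of 22. The members higher without overlap were, beside SNORA81, SNORA33 in RPS12, SNORA45 in RPL27A and SNORA75 in NCL, the gene of the nucleolar protein nucleolin. SNORA75 had 0.59, 0.60 and 0.77 against 3.88, 1.32 and 1.07 CPM, and SNORA33 had 0.55, 0.86 and 0.96 against 4.71, 1.3 and 1.26. These 3 passed the 1 CPM limit in CTCF-dRBR only.

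**Figure D3:**
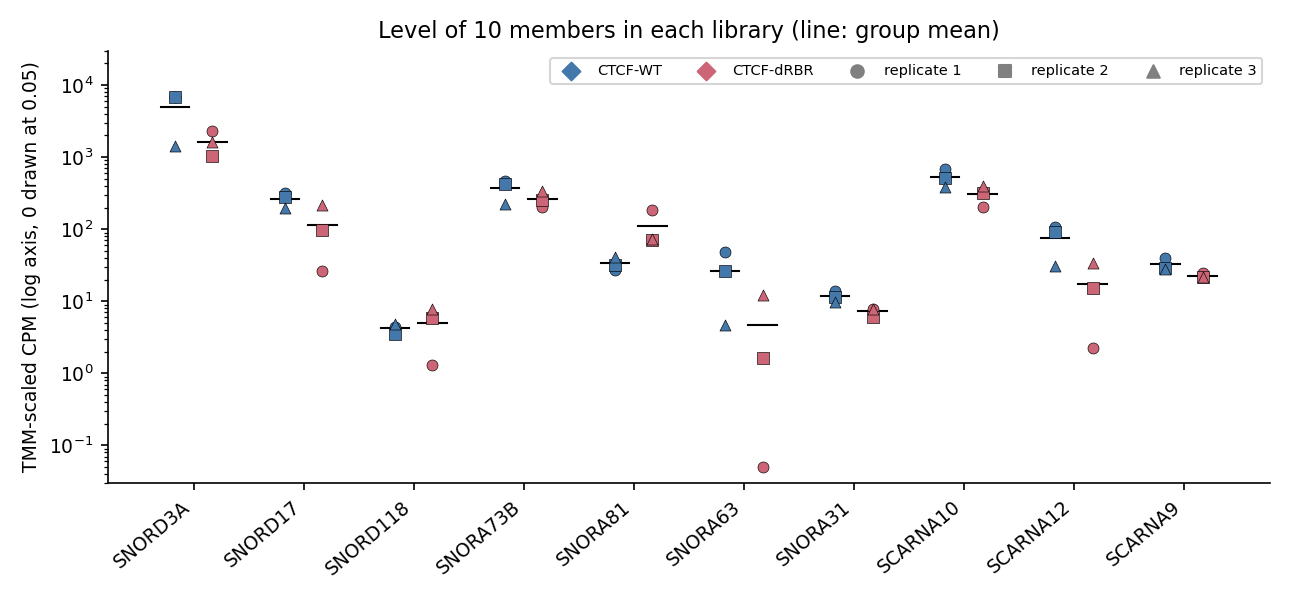
TMM-scaled CPM (log axis) of 10 members in each library (blue, CTCF-WT; red, CTCF-dRBR; circle, square and triangle for replicates 1 to 3; black line, group mean; the 0 of SNORA63 in CTCF-dRBR 1 is drawn at 0.05). SNORA81 is higher and SNORA31 and SCARNA9 lower without overlap, while for SNORD17, SNORD118, SNORA63 and SCARNA12 CTCF-dRBR 1 is far below the other libraries.

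The pair in EIF4A2, a translation initiation factor, was the widest contrast within 1 host. EIF4A2 itself had 795, 838 and 901 CPM in CTCF-WT and 1084, 963 and 902 in CTCF-dRBR, a log2 difference of 0.22 (SE 0.11). SNORA63, further along the same strand, had 48.5, 26 and 4.73 CPM in CTCF-WT and 0, 1.62 and 12.4 in CTCF-dRBR, so the groups overlapped. Relative to the host within each library, SNORA81 was higher by 1.35 log2 units in CTCF-dRBR (exact permutation p = 0.1, two-sided, the smallest possible), and SNORA63 was lower by 3.2 (exact permutation p = 0.2). The GC contents of the 2 RNAs are 38.8% and 43.2%. Each is fully covered by an exon of some annotated EIF4A2 transcript, so reads of the host could be assigned to either.

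**Figure D4:**
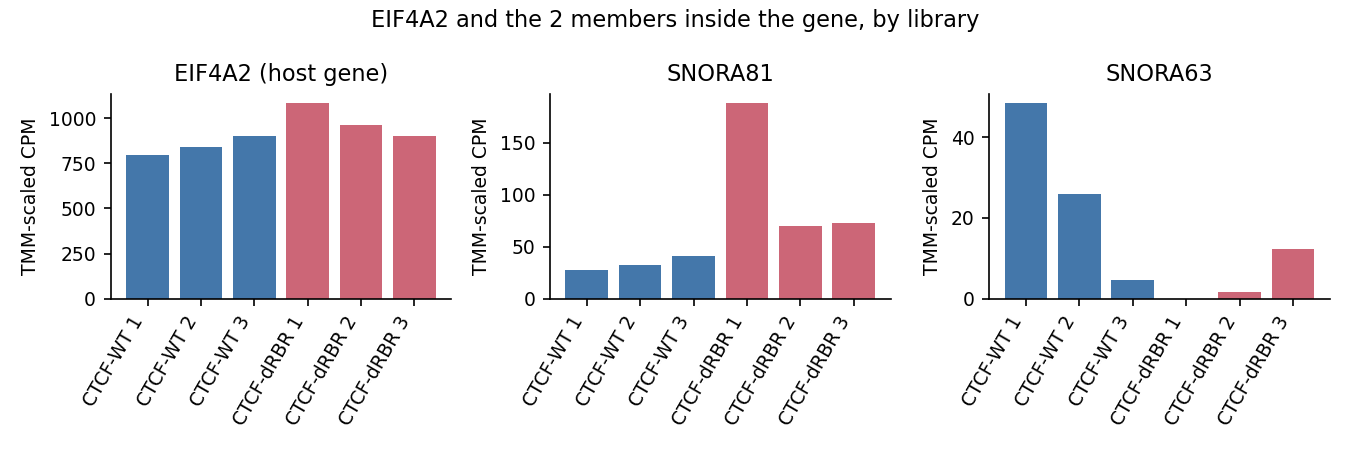
TMM-scaled CPM of EIF4A2, SNORA81 and SNORA63 in each library (blue, CTCF-WT; red, CTCF-dRBR; each panel has its own axis from 0). SNORA81 reaches 188 CPM in CTCF-dRBR 1, where SNORA63 had no count, while EIF4A2 stays between 795 and 1084 CPM.

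TAF1D and SNHG17 held 3 members each. In TAF1D, SNORA8 had 3.30, 2.75 and 0.76 against 0.39, 2.01 and 3.38 CPM, SNORA18 had 1.82, 1.51 and 0.45 against 0, 0.83 and 2.36, and SNORA40 had 1.82, 0.46 and 0.12 against 2.04, 0 and 0.61. The 3 had overlapping groups, and SNORA40 did not share the low value of CTCF-dRBR 1. In SNHG17, SNORA71A, SNORA71C and SNORA71D had log2 fold changes of −1.69 (SE 0.99), −1.69 (SE 1.20) and −0.24 (SE 0.45), with overlap in each, and −1.09, −0.27 and −0.14 without CTCF-dRBR 1. The fitted fold changes of members with a count of 0 in some library, 10 in all, depend on the small count that is added before taking logs.

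Cajal body RNAs. Of 12 members 10 had a negative fitted fold change, and 5 had an unadjusted p under 0.05 by limma-voom, all lower, against 12.8% of all genes in that direction. SCARNA10 had 677, 522 and 391 CPM in CTCF-WT and 201, 322 and 394 in CTCF-dRBR. The overlap was small, since CTCF-WT 3 and CTCF-dRBR 3 were nearly equal, and the log2 fold change was −0.81 (SE 0.30, limma-voom adjusted p = 0.178). SCARNA2 (chr1:109642815-109643241), a guide for the U2 spliceosomal RNA, had 288, 282 and 131 against 40.5, 89.7 and 138 CPM, with a log2 fold change of −1.43 (SE 0.50).

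SCARNA12, in PHB2, had 107, 91.1 and 30.5 CPM against 2.26, 15.5 and 33.8, and its log2 fold change was −2.54 (SE 0.96, limma-voom adjusted p = 0.181), and −1.54 without CTCF-dRBR 1. SCARNA13, in SNHG10, had 144, 157 and 119 against 64.1, 131 and 132 CPM, a log2 fold change of −0.40 (SE 0.29), which was −0.085 without CTCF-dRBR 1. The former has 57.8% GC and the latter 47.6%. SCARNA9 (chr11:93454679-93455031), in CEP295 and likewise a guide for U2, had 40.5, 29.1 and 28.1 against 24.7, 21.6 and 21.9 CPM. It was the only scaRNA whose groups did not overlap, with a log2 fold change of −0.51 (SE 0.18, limma-voom adjusted p = 0.166).

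SCARNA7 (chr3:160232695-160233024), in KPNA4, had 257, 217 and 176 CPM in CTCF-WT and 532, 152 and 170 in CTCF-dRBR. CTCF-dRBR 1 was the highest library and the other 2 were below CTCF-WT, so that the log2 fold change of 0.15 (SE 0.48) became −0.42 without CTCF-dRBR 1. SCARNA5 and SCARNA6 lie in the same gene, ATG16L1. SCARNA5 (chr2:234184373-234184648) had 68.2, 62.6 and 49.6 against 33.5, 54.5 and 62.2 CPM, and SCARNA6 (chr2:234197322-234197586) had 18.6, 15.7 and 12.0 against 2.51, 9.61 and 13.8.

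The fold changes followed GC content within each class. The Spearman correlation between the GC content of the annotated gene and the log2 fold change was −0.63 for 21 box C/D, −0.59 for 53 box H/ACA and −0.75 for 11 Cajal body members, and −0.68 across 13654 genes of all kinds. These points share the same 6 libraries and are given as a description. Members with 55% GC or more had a median log2 fold change of −1.46, and 1 of 22 was positive, while all genes in that range had a median of −0.60. Members with under 45% GC had a median of −0.13 with 12 of 25 positive, and all genes in that range had 0.25. In both ranges the median of the members was below that of all genes.

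With a GC trend removed from each library, the medians of the classes were −0.18, −0.78 and −0.50, and 2 of 85 members passed an adjusted p of 0.05 by limma-voom, SNORA81 higher and SNORA31 lower, among 9.73% of all genes. With CTCF-dRBR 1 left out as well the medians were −0.20, −0.35 and −0.27. The part of library composition in what then remained was not tested. Other short structural RNAs differed among themselves: 28 spliceosomal RNA rows had a median log2 fold change of −0.02, and 12 rows of TERC, RMRP, RPPH1, RN7SK and RN7SL, with a median GC content of 59.4%, had −1.3. From their own means, the spliceosomal rows lay at medians of 0.26, 0.05 and 0.13 in CTCF-WT and −0.59, −0.01 and 0.64 in CTCF-dRBR. The 12 rows lay at 1.07, 0.98 and −0.06 against −1.49, −0.45 and 0.22. In both sets CTCF-dRBR 1 was lowest, as in each class of members. For 3 Y RNA rows CTCF-dRBR 2 was lowest, at −0.31.

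**Figure D5:**
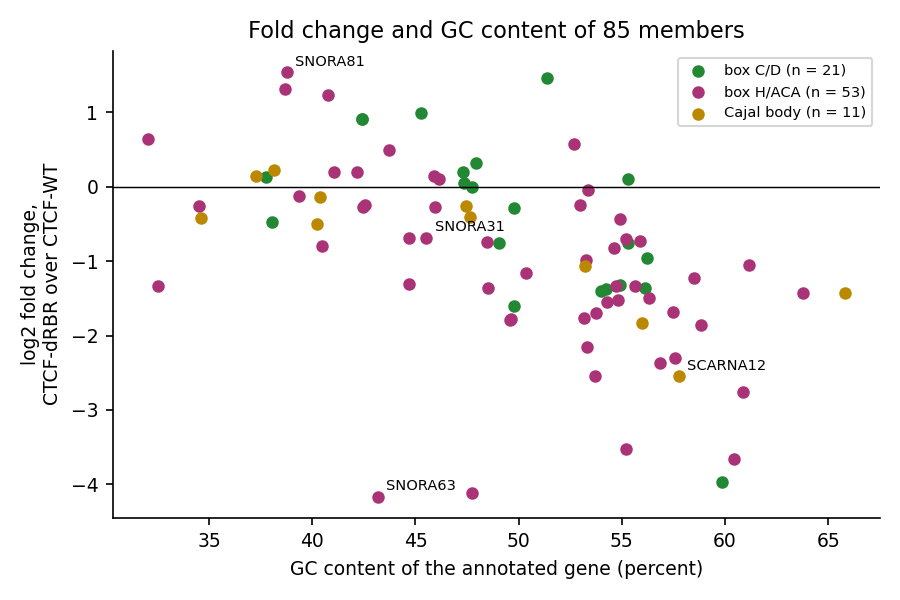
Log2 fold change (CTCF-dRBR over CTCF-WT, y axis) against GC content of the annotated gene in percent (x axis) for the 85 members with a reference gene, coloured by class. The values decline with GC content, with a Spearman correlation of −0.63, −0.59 and −0.75 in the 3 classes, and SNORA63 lies far below other members of similar GC content.

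Most members lie in a host. Of 85 with a match in the reference annotation, 72 lay inside a gene on the same strand, and 35 of these had no exon of the host over them. For 71 pairs with 58 tested hosts, the log2 ratio of the member to its host was lower in CTCF-dRBR for 47 and higher for 24, with a median change of −0.28, and −0.27 where no host exon covered the member (n = 34). In the deposited TPM these medians were −1.06 and −1.02. The classes differed. The median change in counts was −0.019 for box C/D (8 lower, 7 higher) and −0.32 for box H/ACA (32 lower, 15 higher). For Cajal body members it was −0.36 (7 lower, 2 higher). In TPM the 3 medians were 0.03, −1.46 and −1.03. The hosts had a median log2 fold change of −0.07 and the members in them −0.69. Across these pairs the fold changes of member and host had a Spearman correlation of 0.15, which describes the same 6 libraries. The median ratio was −5.07, −5.07 and −5.93 in CTCF-WT 1 to 3 and −6.55, −6.11 and −5.37 in CTCF-dRBR 1 to 3, so that CTCF-dRBR 3 lay inside the range of CTCF-WT.

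The genes for the proteins that bind, build and trim these RNAs were tested from a list of known factors. Of 34 genes, 0 passed an adjusted p of 0.05 by limma-voom, and 13 had an unadjusted p under 0.05, 12 lower and 1 higher in CTCF-dRBR, against 12.8% and 12.6% of all genes. The edgeR quasi-likelihood test gave 0 and 12, against 0% and 24.6% of all genes. Without CTCF-dRBR 1, 7 of the 34 passed the adjusted threshold, as did 3.9% of all genes in that fit.

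Among the box C/D core proteins, the methyltransferase FBL had 124, 120 and 100 CPM in CTCF-WT and 63.5, 42.1 and 44.9 in CTCF-dRBR, without overlap, with a log2 fold change of −1.24 (SE 0.17, limma-voom adjusted p = 0.0959). NOP56 and NHP2L1 (SNU13) were lower without overlap too, with log2 fold changes of −0.46 (SE 0.08) and −0.60 (SE 0.19), and NOP58 overlapped with 0.09 (SE 0.22). The 4 box H/ACA core proteins were lower without overlap, as were 3 of the 4 box C/D ones and 17.5% of all genes. The pseudouridine synthase DKC1 had 166, 151 and 166 CPM against 110, 118 and 123, a log2 fold change of −0.46 (SE 0.09). NHP2 had 114, 118 and 91.9 against 44.6, 50.9 and 70.5 CPM, with CTCF-WT 3 lowest and CTCF-dRBR 3 highest in their groups. The log2 fold changes of NHP2, NOP10 and GAR1 were −0.96 (SE 0.19), −0.54 (SE 0.12) and −0.61 (SE 0.24). The part of GC content in the values of these proteins was not tested.

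Over all genes 12.8% were lower and 12.6% higher at an unadjusted p under 0.05. Of 10 assembly factors 4 were, all lower: the chaperone NOLC1 (−0.60), the ATPases RUVBL1 (−0.48) and RUVBL2 (−0.87), and ZNHIT6 (−0.45), whose groups overlapped. Of 7 genes that act on the ends of these RNAs, such as PARN and EXOSC10, the exonuclease XRN1 alone had an unadjusted p under 0.05, with a log2 fold change of 0.41 (SE 0.13), and the fitted fold change was positive for each of the 7. Of 9 genes for Cajal body proteins, which include COIL and WRAP53, GEMIN5 alone did, at −0.29 (SE 0.09).

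Detection went with annotated length. Of 361 box C/D rows of the snoRNA biotype under 100 bases, 4 (1.11%) were members and 268 had no count in any library, whereas all 6 rows of 125 to 149 bases were members. For box H/ACA, 41 of 272 rows of 125 to 149 bases (15.1%) and 7 of 36 rows of 150 bases or more were members. Of the Cajal body rows of 150 bases or more, 6 of 14 were. Box C/D RNAs are typically shorter than box H/ACA RNAs. Whether length or the level of the RNA kept a row below the limit was not tested. A count of 0 allows 0.0564 to 0.0999 CPM in a library (3 counts, counting error only), so a row without counts is not shown to be absent from the cells.

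The annotation adds a further limit. Of the 87 rows, 72 had the snoRNA biotype and 15 another. The annotated exons of 14 of the 85 matched rows covered more than 300 bases, such as SNORA67 with 4554 and SCARNA15 with 4325. Counts on such rows may come from the longer transcript around the small RNA. The gene of SNORA67 (chr17:7476144-7485342, plus strand) also encloses the members SNORA48 and SNORD10 on the same strand. SNORA67 had 32.1, 30.5 and 13.7 CPM in CTCF-WT against 9.10, 10.7 and 16.6 in CTCF-dRBR, and SCARNA15 had 13.3, 14.9 and 16.3 against 21.2, 16.5 and 15.3, both with overlap.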

How the data were processed

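Total RNA of SEM cells, with rRNA removed, was sequenced for 3 CTCF-WT and 3 CTCF-dRBR libraries (single-end reads per the labels, paired-end per the methods). Per the submitters' processing notes and the methods, reads were trimmed with Trim Galore 0.6.3, aligned to hg19 (GRCh37) with STAR 2.7.9a and quantified on Gencode version 19 with RSEM 1.3.1. The deposited expected counts are RSEM estimates per gene, not normalized and not whole numbers. The deposited TPM were scaled by the authors to effective gene length and library total. How the counting used strand is not stated.

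The main test was that of the methods: a gene had to reach 1 CPM in some library, counts were scaled by TMM and fitted by limma-voom without covariates (R 4.3.3, limma 3.58.1, edgeR 4.0.16), two-sided, with Benjamini-Hochberg adjustment over 14044 genes at 0.05. For 3 against 3 libraries the exact permutation test cannot go below 0.1. CPM of single genes are TMM-scaled, and shares and sums are of raw counts. Host ratios used CPM with 0.5 added. GC content, coordinates, hosts and sequences came from the GRCh37 genome and Gencode version 44 lifted to it, matched by Ensembl identifier for 85 of 87 members (not SCARNA10 and SNORD109A). The GC trend of a library was a loess fit (span 0.5, degree 2) against GC content. The values fitted were the log2 CPM of each gene (prior count 1) minus its mean over the libraries. The trend was subtracted on the log scale. 

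Named members were, by rule, those with the highest counts in each class (5, 5 and 3), up to 3 in each direction and class with no overlap, the smallest p and a mean of at least 5 CPM, those with a known role or locus, those of the 3 hosts with the most members, and the 3 rows on each side of the 1 CPM limit. SNORA63, SNORD10, SNORD67, SNORA33, SNORA45, SNORA75, SNORA67, SCARNA15 and the box C/D rows only listed as overlapping were chosen after their values were seen. The members and gene lists were chosen with earlier results of these data known.

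Alternatives were edgeR's quasi-likelihood test and DESeq2 1.42.0 (both on rounded counts), voomWithQualityWeights, other scalings and filters, limma-trend on TPM (log2, with 1 or 0.1 added), GC trend removal, a replicate block and leaving out libraries. The fits were tested on simulated counts with known changes. Figures were drawn with matplotlib 3.10.9.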

Additional observations from a re-analysis of the deposited data

How the results depend on the processing

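The count of members past an adjusted p of 0.05 was 0 under the other scalings, the filters, the replicate block and edgeR, 9 under DESeq2 (11.5% of all genes), 64 under voomWithQualityWeights (68.2%), 39 under both log2(TPM + 1) and log2(TPM + 0.1) (5.93% and 5.41% of all genes), 2 after removal of the GC trend (9.73%), 5 after its removal in 5 libraries without CTCF-dRBR 1 (23.6%), and 0 to 1 when single libraries were left out (1, SNORA81, without CTCF-dRBR 1, and 3.9% of all genes). When single libraries were left out, the list of 34 protein genes gave 0 to 7 (7 without CTCF-dRBR 1). Its counts under DESeq2, voomWithQualityWeights, TPM and GC removal are not given here. The 5-library and 4-library settings were chosen after seeing the data. TPM scaling moved the median of all genes to 0.40 and 0.54.

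The box C/D median became 0.38 when the libraries were scaled on the members, −0.76 with a mean of at least 1 CPM and −0.75 with at least 5. The box H/ACA median became −0.35 in 5 libraries without the GC trend and −0.30 in 4 libraries, and ran from −1.63 to −0.58 when single libraries were left out. The Cajal body median became 0.16 when scaled on the members. Over all pairs the median change of the host ratio was −1.06 in TPM. The cause of these moves was not tested.

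Replicate numbers were treated as names, since the deviations of equal numbers correlated at −0.34, 0.10 and −0.47. With the number as a block, 0 members passed and 9 had an unadjusted p under 0.05, against 10.1% of all genes, and the median of box H/ACA members was −0.77.

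Of 32 named members some turned direction. Scaling on the members gave 0.17 for SCARNA13, 0.31 for SNORA8, 0.32 for SCARNA5, 0.27 for SNORA71D, 0.29 for SNORD116-20, 0.36 for SNORA53, 0.18 for SNORA73B and 0.14 for SCARNA9. In 4 libraries SNORD64 had −0.077, SCARNA5 0.058, SCARNA7 −0.29, SNORA53 0.38, SNORD13 0.0054, SNORA18 0.76, SNORA71D 0.12, SNORA8 0.84 and SNORD116-20 0.0044. GC removal gave −0.18 for SNORD64, 0.0075 for SNORA71D and −0.18 for SCARNA7, and in 5 libraries −0.59 for SCARNA7, −0.26 for SNORD64, 0.029 for SNORD116-20, 0.26 for SNORA53, 0.32 for SNORA18 and 0.36 for SNORA8. SNORA53 had 0.032 with DESeq2, 0.035 with edgeR, 0.22 with voomWithQualityWeights and 0.072 in both TPM fits, and SCARNA7 had −0.50 with voomWithQualityWeights. SNORA40 had 0.15 with DESeq2, 0.084 with edgeR and 0.090 with the replicate block. SNORD116-20 had 2.38 and 2.39 in the TPM fits. SNORD118 had −0.23 in both, −0.013 with a mean of at least 1 CPM and −0.091 with no filter. When single libraries were left out SNORA53 ran from −0.49 to 0.41, SCARNA7 from −0.42 to 0.48, SNORD118 from −0.44 to 0.69, SNORA71D from −0.64 to 0.0080, SNORA18 from −2.75 to 0.39, SNORA8 from −0.94 to 0.45, SNORA40 from −2.60 to 1.14 and SNORD64 from −0.089 to 0.28.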
